A study of Homo sapiens with 8 samples.

Results

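Nucleotide synthesis for DNA replication was followed through 9 genes, chosen by name and matched to the array through the RefSeq accession of each probe: *RRM1*, *RRM2*, *TYMS*, *TK1*, *DUT*, *DTYMK*, *DCK*, *CTPS1* and *SLC29A1*. These genes and the lists below were chosen with earlier results of these data known. All 9 were on the array, among 22439 named genes, with 11 probes in all. RNA was measured on 8 Agilent arrays that shared 1 slide, with treated RNA in Cy5 (red) and control RNA in Cy3 (green) and no dye swap. EBC-1 and SK-MES-1, lines of lung squamous cell carcinoma (LUSQ), were transfected with *miR-150-3p*, with 1 array each, against cells of the same line that the labels call both mock and untransfected. SBC-3, a small cell lung cancer line, received 1 of 3 siRNAs against *DONSON* on each of 3 arrays (siDONSON-1 to siDONSON-3), against mock SBC-3 cells. A549, a lung adenocarcinoma line, carried an edited *LOXL2* gene on 3 arrays (A549-GE1 to A549-GE3), against A549 cells without editing. The labels do not say whether the edited cells were clones or pools.

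The value of a gene is the log2 ratio of treated over control signal, so that -1 stands for a halved level. The targeted genes were low where the labels place the treatment. *DONSON* had log2 ratios of -2.15, -1.79 and -2.11 on the siDONSON arrays, and *LOXL2* had log2 ratios of -2.49, -2.67 and -2.59 in edited A549 cells. Smaller falls were seen elsewhere, of *DONSON* in EBC-1 (-1.02) and of *LOXL2* on siDONSON-1 (-0.81). Not all markers of the labelled tumour types were detected. In the control LUSQ cells, the squamous keratins *KRT5* and *KRT6A* were not well above background, *TP63* and *KRT14* were above it in SK-MES-1 but not in EBC-1, and *SOX2* was above it in both. Mock SBC-3 cells had *NEUROD1*, *SYP* and *CHGA* above background on 3 of 3 arrays but *INSM1* and *POU2F3* on 0 of 3. *TP63*, *SOX2* and *KRT7* were above background there on 3 of 3 arrays as well, *KRT14* on 2 of 3 and *NKX2-1* on 1 of 3. Control A549 cells had *NAPSA* and *KRT7* above background on 3 of 3 arrays, but not *NKX2-1* or *SFTPB*. *CHGA* and *SOX2* were above background there on 3 of 3 arrays too, and *NAPSA* and *KRT7* were above it in both LUSQ controls.

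Cells that copy their DNA need the deoxynucleotides in balanced amounts, and they make them by reducing ribonucleotides or recover them from nucleosides outside the cell. Ribonucleotide reductase, built from the large subunit RRM1 and the small subunit RRM2, carries out the reduction. Thymidylate synthase (TYMS) methylates dUMP to dTMP, which thymidylate kinase (DTYMK) phosphorylates further, and the dUTPase DUT supplies dUMP and keeps uracil out of DNA. CTP synthetase (CTPS1) makes CTP from UTP, the kinases TK1 and DCK salvage thymidine and deoxycytidine, and the transporter SLC29A1 carries nucleosides across the membrane. Many of these genes are expressed most strongly in S phase, and several encode targets or activators of drugs used in lung cancer, such as pemetrexed and gemcitabine.

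Most of the 9 genes were low together on the EBC-1 array, and their promoters were searched for motifs known from S-phase genes. RefSeq windows from 250 bases before to 50 bases after the start (build GRCh38.p14) were found for 9 of 9 genes, 16 windows in all. The E2F-type motif was searched as TTCCCGC or TTCGCGC or TTGCCGC or TTGGCGC and the NF-Y-type motif as CCAAT, both on either strand. An E2F-type match lay in at least 1 window of 6 genes (*RRM1*, *RRM2*, *TYMS*, *TK1*, *DUT* and *DCK*), and counted by window in 6 of 16 (37.5%), beside 13% of all 35116 promoter windows. A CCAAT match lay in at least 1 window of 4 genes (*RRM1*, *RRM2*, *TK1* and *DTYMK*), and counted by window in 5 of 16 (31.2%), beside 34.6% of all windows. *CTPS1* and *SLC29A1* had neither in their windows. The 150 bases before the start are given below for the genes past the threshold in EBC-1 minus SK-MES-1 below (*RRM2*, *TYMS*, *TK1* and *DTYMK*), for *RRM1* and *DUT*, which just missed the threshold, and for *CTPS1* as a window without a match. Capitals mark matches to either motif, and where a gene had several starts, the window with the most matches is shown.
*RRM2*, chr2:10122589-10122738, plus strand: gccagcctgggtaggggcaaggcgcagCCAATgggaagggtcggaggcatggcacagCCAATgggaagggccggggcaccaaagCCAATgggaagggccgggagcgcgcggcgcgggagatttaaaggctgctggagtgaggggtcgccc
*TYMS*, chr18:657503-657652, plus strand: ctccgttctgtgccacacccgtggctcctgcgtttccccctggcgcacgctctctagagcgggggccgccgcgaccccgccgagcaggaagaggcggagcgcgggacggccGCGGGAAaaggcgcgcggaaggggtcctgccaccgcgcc
*TK1*, chr17:78187053-78187202, minus strand: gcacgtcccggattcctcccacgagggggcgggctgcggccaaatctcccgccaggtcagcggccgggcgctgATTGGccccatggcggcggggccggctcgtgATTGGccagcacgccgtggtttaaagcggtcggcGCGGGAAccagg
*DTYMK*, chr2:241686816-241686965, minus strand: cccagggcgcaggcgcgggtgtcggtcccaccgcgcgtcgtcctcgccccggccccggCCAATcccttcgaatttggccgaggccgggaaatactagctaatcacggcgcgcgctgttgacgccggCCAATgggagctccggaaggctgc
*RRM1*, chr11:4094535-4094684, plus strand: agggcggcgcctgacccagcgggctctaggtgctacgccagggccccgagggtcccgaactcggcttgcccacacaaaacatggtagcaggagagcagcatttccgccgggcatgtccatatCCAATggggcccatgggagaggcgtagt
*DUT*, chr15:48332047-48332196, plus strand: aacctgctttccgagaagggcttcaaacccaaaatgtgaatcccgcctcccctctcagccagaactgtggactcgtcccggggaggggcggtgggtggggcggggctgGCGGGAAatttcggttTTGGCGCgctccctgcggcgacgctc
*CTPS1*, chr1:40979546-40979695, plus strand: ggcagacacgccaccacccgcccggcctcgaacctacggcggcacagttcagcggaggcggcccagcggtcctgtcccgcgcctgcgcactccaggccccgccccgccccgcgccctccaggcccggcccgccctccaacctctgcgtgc
The *RRM2* stretch held 3 CCAAT matches, the *RRM1* stretch held 1, and the E2F-type matches of both genes lay outside. The *DUT* stretch held 2 E2F-type matches, and the *TK1* stretch held 2 CCAAT matches and 1 E2F-type match. The window of *DCK*, which is not shown, held 3 E2F-type matches, and that of *DTYMK* held 0. All of these are matches of letters in a window and were not tested as binding sites. The stretches shown were mostly picked by the values of their genes, and whether matches go with the log2 ratios was not tested.

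Both subunits of ribonucleotide reductase were low in EBC-1 cells after *miR-150-3p* transfection and near 0 in SK-MES-1 cells. *RRM1* had a log2 ratio of -1.68 in EBC-1 but -0.02 in SK-MES-1, of -0.97, -0.46 and -0.35 on siDONSON-1, -2 and -3, and of -0.07, -0.04 and -0.04 on the edited A549 arrays. It was thus below 0 on all siDONSON arrays, with siDONSON-1 lowest. *RRM2* had a log2 ratio of -1.91 in EBC-1 but 0.19 in SK-MES-1, of -0.10, 0.30 and -0.20 (its values on siDONSON-1, -2 and -3), and of -0.37, -0.18 and -0.38 on the edited A549 arrays. The scanner software's error of these ratios, which covers the noise within an array, was 0.26 for *RRM1* and 0.27 for *RRM2* in EBC-1 and 0.20 to 0.22 on the other arrays. The EBC-1 values therefore lay well outside the technical error, whereas the SK-MES-1 values did not. Each array measures the RNA of a whole culture, so that fewer cells expressing a gene and less of its RNA per cell cannot be told apart.

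The thymidylate genes were lowest in EBC-1 as well. *TYMS* had a log2 ratio of -1.93 in EBC-1, and its other 7 values lay close to 0, from -0.13 on siDONSON-2 to 0.07 on A549-GE3. *DUT*, measured by 2 probes that differed by at most 0.13 on any array, had mean log2 ratios of -1.77 in EBC-1 but -0.36 in SK-MES-1, of -0.14, -0.10 and -0.57 on the siDONSON arrays and of -0.29, -0.14 and -0.18 on the edited A549 arrays. *DTYMK* was at -1.04 in EBC-1 but 0.21 in SK-MES-1, at -0.06, 0.18 and -0.06 on the siDONSON arrays, and at 0.15, 0.18 and 0.15 on the edited A549 arrays. *DTYMK* was the only gene of the 9 above 0 on all arrays of edited A549 cells, though each of these values lay within its software error (0.204 to 0.205).

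Of the remaining genes, *TK1* had the lowest value of all, a log2 ratio of -1.99 in EBC-1. In SK-MES-1 it was at -0.42, on the siDONSON arrays at 0.00, -0.02 and -0.44, and on the edited A549 arrays at -0.33, -0.24 and -0.19. *DCK* was at -1.24 in EBC-1 but -0.12 in SK-MES-1, and between -0.62 and 0.22 on the other arrays. Its signal was dim, with a software error of up to 0.45, and its green signal on siDONSON-3 was not well above background. With normexp and loess, its EBC-1 value shrank to -0.15. For the other 8 genes, both channels were well above background on every array. *CTPS1* was at -0.79 in EBC-1, -0.28 in SK-MES-1 and between -0.20 and -0.05 on the other arrays, as the mean of 2 probes that differed by as much as 0.46. *SLC29A1* was at -0.62 in EBC-1 but -0.12 in SK-MES-1, at 0.15, -0.00 and -0.65 on the siDONSON arrays and at -0.47, -0.36 and -0.25 on the edited A549 arrays.

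**Figure D1:**
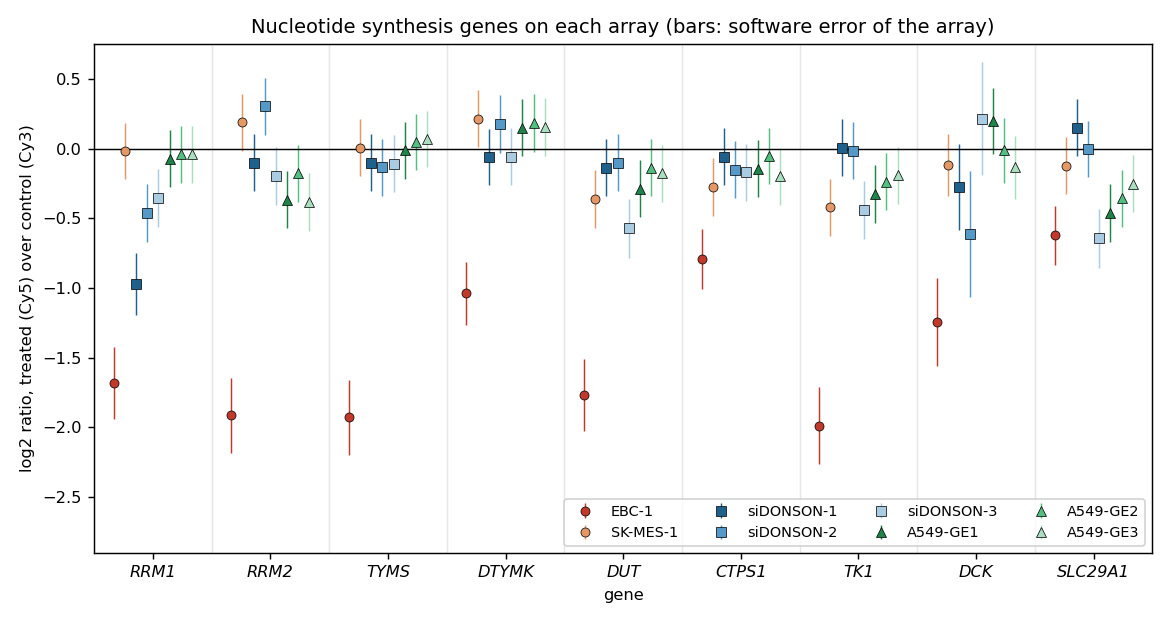
Log2 ratio of treated over control signal (vertical axis) of each of the 9 genes (horizontal axis) on the 8 arrays, with bars for the scanner software's error of that array (mean over probes where a gene has 2). The EBC-1 points lie lowest for 8 of the genes, between -0.79 and -1.99, while the SK-MES-1 points lie between -0.42 and 0.21.

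On the EBC-1 array, log2 ratios below -1 were found for 7 of the 9 genes, and for 892 of 14759 genes (6.04%) in all. Of the 7, *DCK* (-0.15) and *DTYMK* (-0.97) were not below -1 with normexp and loess. On the SK-MES-1 array this held for 0 of the 9 genes and for 205 of 16176 genes (1.27%). There was 1 array per line, so these counts have no replicate check. The median of the 9 genes was -1.68 for EBC-1 but -0.12 for SK-MES-1, where the medians of all genes were 0.05 and 0.02. On the 6 other arrays the median of the 9 genes lay between -0.20 and -0.05 and that of all genes between 0.02 and 0.05. All 9 genes were below 0 in EBC-1, where 45.9% of all genes were, and 6 of 9 were below 0 in SK-MES-1, where 47.5% of all genes were. The median in EBC-1 was -1.26 with another background correction and dye normalization, and -1.36 after subtraction of the other groups' arrays. That subtraction turned the median in SK-MES-1 to 0.05 and those on the 6 other arrays to between 0.12 and 0.34. On those 6 arrays EBC-1 is among the arrays subtracted, which lifts genes that were low there, while for SK-MES-1 only the siDONSON and edited A549 arrays are subtracted. The sign of the small medians outside EBC-1 thus depends on the processing. Of 5 markers of other cell types, 4 had a value in EBC-1. *PTPRC*, *CD3E* and *COL1A1* had log2 ratios from 0.23 to 0.36, *PECAM1* was not well above background, and *DCN* was above it in transfected cells only, so that no ratio is given. In SK-MES-1 *COL1A1* was at -1.06. Of the squamous markers, *KRT14* was at 1.13 on the SK-MES-1 array. Its control signal in EBC-1 was not well above background, so no ratio is given there. By limma it passed as higher with *miR-150-3p* (adjusted p = 0.0295), but that call rests in part on the EBC-1 array and is not read further. *SOX2* was at 1.32 in EBC-1 but -0.92 in SK-MES-1. Their part in the values of the 9 genes was not tested.

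The first comparison asked which genes changed with *miR-150-3p* across the LUSQ lines. None of the 9 genes passed the threshold (0 of 9 by limma, adjusted p of 0.05), although 6 of them had an unadjusted p below 0.05, all with lower levels. Of all 14229 genes tested, 413 were lower (2.9%) and 352 were higher (2.47%). The lowest adjusted p-values were those of *CTPS1* (mean log2 ratio -0.53, SE 0.13, adjusted p = 0.0588), *TK1* (-1.21, SE 0.31, adjusted p = 0.0618) and *DUT* (-1.06, SE 0.28, adjusted p = 0.0681), each below 0 on 2 of 2 arrays. This sign was not particular to *miR-150-3p*. *CTPS1* and *DUT* were below 0 on all siDONSON and edited A549 arrays too, and *TK1* on all of them but siDONSON-1. A dye bias of their probes was not tested. *RRM1*, *RRM2* and *TYMS* had means of -0.85, -0.86 and -0.96, and their 95% intervals reached from -1.79 at the lowest to 0.06 at the highest. These means hide the distance between the lines. With the SK-MES-1 array left out, 8 of the 9 genes passed, led by *TYMS* (adjusted p = 0.00103), *SLC29A1* being the exception, while over all 14759 genes 1585 were lower and 1387 higher. With the EBC-1 array left out, 0 of 9 passed (0 of 9 at an unadjusted p below 0.05), and of all 16176 genes 1 was lower and 0 were higher (969 and 1224 at an unadjusted p below 0.05). In these fits the lone array is assumed to vary like the arrays of the other groups. *CTPS1* also passed with normexp and loess (together with *DUT*), with both channels required above background (with *TK1*) and with an intensity trend in the spread (with *DUT* and *TK1*).

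The second comparison tested the distance between the LUSQ lines itself, as EBC-1 minus SK-MES-1, so that a dye bias shared by both arrays cancels. Each line had 1 array, so the spread came wholly from the siDONSON and edited A549 arrays, and the lone arrays are assumed to vary like them. The test does not measure how much repeated EBC-1 or SK-MES-1 cultures vary. In it *TYMS*, *RRM2*, *TK1* and *DTYMK* passed the threshold with a lower value on the EBC-1 array (4 of 9), against 220 of all 14229 genes (1.55%), and 0 of 9 were higher (0 of 9 at an unadjusted p below 0.05), against 75 genes (0.527%). The difference in log2 ratio was -1.93 (SE 0.16, adjusted p = 0.0137) for *TYMS* and -2.10 (SE 0.28, adjusted p = 0.0316) for *RRM2*, or about 3.82-fold and 4.29-fold on the linear scale. It was -1.57 (SE 0.26, adjusted p = 0.0434) for *TK1* and -1.25 (SE 0.19, adjusted p = 0.0374) for *DTYMK*. *RRM1* (-1.67, adjusted p = 0.0515) and *DUT* (-1.41, adjusted p = 0.0561) narrowly missed the threshold. *DCK* (95% interval -2.05 to -0.20), *CTPS1* (-0.94 to -0.10) and *SLC29A1* (-1.40 to 0.40) missed it by more, and with normexp and loess the difference of *DCK* was -0.10 (adjusted p = 0.674). A p-value that misses the threshold does not show that the lines were alike, and these intervals reach to sizeable differences.

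These calls are fragile. With any 1 of the 3 edited A549 arrays left out, 0 of 14229 genes passed in this limma comparison. Without A549-GE1, for example, 1166 genes were lower and 871 higher at an unadjusted p below 0.05. The adjusted p of *TYMS* was then 0.059, and it was 0.0737 without A549-GE2 and 0.0642 without A549-GE3. The differences themselves do not depend on those arrays, which only supply the spread, and 8 of the 9 genes had an unadjusted p below 0.05 in each of these fits. Without siDONSON-3, *DTYMK* missed the threshold (adjusted p = 0.0528) and *DUT* passed it (adjusted p = 0.04). With no filter on dim probes, which adds genes to the adjustment, only *TYMS* passed. With normexp and loess, with median centring, with both channels required above background, and with an intensity trend in the spread, 6 of 9 genes passed, the 4 above with *RRM1* and *DUT*. Over all genes 321, 261, 260 and 352 were then lower, in place of 220, and with normexp and loess the difference of *RRM2* was -1.39. Of the remaining fits, *RRM1* passed also without siDONSON-1 (adjusted p = 0.023), and *RRM1* and *DUT* without siDONSON-2 (adjusted p = 0.0486 and 0.0424).

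Genes of the replication machinery were set beside them, in lists that were also chosen with earlier results of these data known. All 6 genes of the MCM helicase, which unwinds DNA at the fork, passed with a lower value on the EBC-1 array, among them *MCM6* (difference -2.01, adjusted p = 0.0326), *MCM4* (-1.90, adjusted p = 0.0276) and *MCM5* (-1.63, adjusted p = 0.0326). Of 9 tested genes for replicative polymerases and the sliding clamp, 5 passed with a lower value, among them *PRIM1* of the primase (-2.13, adjusted p = 0.0326), the clamp *PCNA* (-2.12, adjusted p = 0.0137) and *POLE2* (-2.10, adjusted p = 0.0232). The median difference was -1.61 for the MCM genes and -1.46 for the polymerase list, beside -1.41 for the 9 nucleotide genes and 0.01 for all genes tested. With any 1 of the edited A549 arrays left out, these calls were lost as well (adjusted p of *PCNA* 0.0588 to 0.0737), and *PRIM1* also missed the threshold without siDONSON-3 (adjusted p = 0.0572). Without a filter on dim probes, only 2 of 6 MCM genes and 2 of 9 polymerase genes passed, with *MCM5*, *MCM6* and *PRIM1* among those lost (adjusted p of 0.0568 to 0.058). With the brightest probe of each gene, or without siDONSON-1, 5 of 6 MCM genes passed, and without siDONSON-3, 3 of 9 polymerase genes. With normexp and loess, the difference of *POLE2* shrank to -0.58 (adjusted p = 0.0327).

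**Figure D2:**
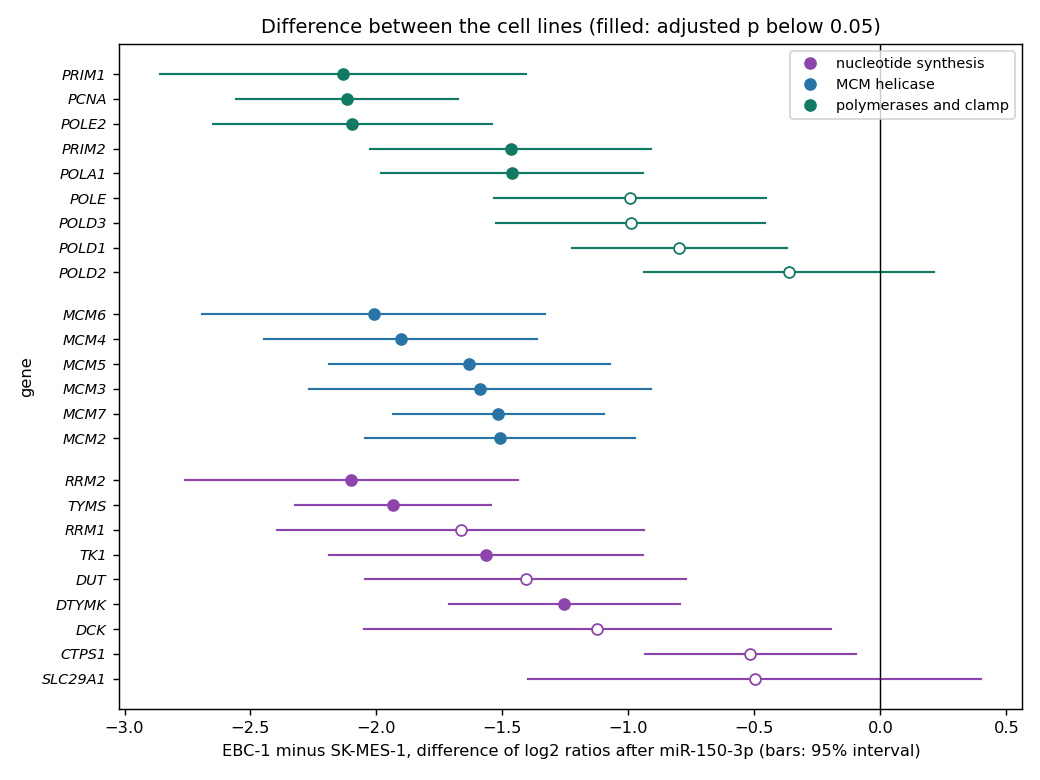
Difference in log2 ratio between EBC-1 and SK-MES-1 cells after *miR-150-3p* transfection (horizontal axis) for the 9 nucleotide genes, the 6 MCM genes and 9 genes for polymerases and the clamp, with 95% intervals and filled points for an adjusted p below 0.05. Most points of all 3 lists lie between -1 and -2.13, and 4 of the 9 nucleotide genes have filled points.

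In SBC-3 cells with siRNA against *DONSON*, a gene of the replication fork, 0 of 9 nucleotide genes passed the threshold and 0 of 9 had an unadjusted p below 0.05. Of 14453 genes tested by limma, 464 were lower (3.21%) and 579 were higher (4.01%). *DONSON* itself fell by 2.02 on the log2 scale (SE 0.16, adjusted p = 0.00168, 3 of 3 arrays), or by 0.89 with normexp and loess. *RRM1* had the lowest mean of the 9 genes (-0.60, SE 0.27, adjusted p = 0.214, below 0 on 3 of 3 arrays), with a 95% interval from -1.23 to 0.04. With either *miR-150-3p* array left out of the fit, which leaves the *RRM1* mean as it is but narrows the spread, its adjusted p was 0.0382. After subtraction of the other groups' arrays, EBC-1 among them, the mean was -0.22 (adjusted p = 0.586). The other 8 means lay between -0.27 (*DUT*) and 0.02 (*DTYMK*). siDONSON-3 differed from the other siRNAs for *TK1*, *DUT* and *SLC29A1*, which were at -0.44, -0.57 and -0.65 there and between -0.14 and 0.15 on the other siDONSON arrays. The siRNAs differ in sequence, and whether they or other differences between the cultures go with this was not tested. None of the tested markers passed by limma with siRNA against *DONSON*, but some differed between these arrays. On siDONSON-1, -2 and -3, *TP63* was at -0.97, 0.04 and -1.03 and *COL1A1* at 0.13, -1.88 and -0.50. Whether these markers go with the values of the 9 genes was not tested.

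In A549 cells with edited *LOXL2*, 0 of 9 nucleotide genes passed the threshold and 0 of 9 had an unadjusted p below 0.05, against 1051 lower (6.77%) and 1178 higher (7.58%) of 15531 genes tested by limma. *LOXL2* fell by 2.58 on the log2 scale (SE 0.23, adjusted p = 0.00126, 3 of 3 arrays). The means of the 9 genes lay between -0.36 (*SLC29A1*, SE 0.17, adjusted p = 0.186, below 0 on 3 of 3 arrays) and 0.16 (*DTYMK*, SE 0.20, adjusted p = 0.638). The 3 arrays were close to each other, with a range of at most 0.33 (*DCK*) for any of the 9 genes. When the spread came only from these 3 arrays, *SLC29A1* (adjusted p = 0.0236), *TK1* (mean -0.25, adjusted p = 0.0297) and *RRM2* (mean -0.31, adjusted p = 0.0333) were lower and *DTYMK* was higher (adjusted p = 0.0469), in a fit that called 2852 genes lower and 3021 higher. The control channels of these arrays may be a single RNA, in which case that spread leaves out the control's own. After subtraction of the other groups' arrays, which by construction lifts genes that were low in EBC-1, *TK1* and *RRM2* were above 0, at 0.32 and 0.04, *SLC29A1* was at -0.11 and *DTYMK* at 0.32. All 3 epithelial markers fell in the edited cells, with log2 means of -2.43 for *EPCAM* (adjusted p = 0.00387, and -1.12 with normexp and loess, adjusted p = 0.00115), -0.75 for *KRT18* (adjusted p = 0.00416) and -0.53 for *KRT8* (adjusted p = 0.00918). With 1 array left out, *KRT8* passed in 5 of 8 fits and the others in all. The adenocarcinoma marker *NAPSA* was at 0.94, 1.03 and 1.02 (adjusted p = 0.0413), but at 0.15 with normexp and loess. It passed in 3 of 8 fits with 1 array left out. Its limma call was lost after subtraction (0.77, adjusted p = 0.0714) and with the array number as a replicate block (adjusted p = 0.0547). *KRT7* was near 0 (-0.12, adjusted p = 0.387), and *COL1A1*, a marker of other cell types, was at 0.82, 1.01 and 1.90 (adjusted p = 0.0775), and passed with the group's own spread (adjusted p = 0.033), after subtraction (1.86, adjusted p = 0.0182) and without siDONSON-2 (adjusted p = 0.0383). Their part in the values of the 9 genes was not tested.

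Around these 9 genes lie 67 others in 7 lists, covering reductase partners, the thymidylate and folate cycle, pyrimidine and purine synthesis, salvage, breakdown and transport. With *miR-150-3p*, 6 of 63 tested by limma were lower (9.52%, beside 2.9% of all genes) and 0 were higher (6 at an unadjusted p below 0.05), with a median of -0.14 beside 0.03 for all genes tested. With siRNA against *DONSON*, 7 of 61 were lower (11.5%, beside 3.21%) and 1 was higher (median -0.13 beside 0.03). In edited A549 cells, 7 of 65 were lower (10.8%, beside 6.77%) and 0 were higher (5 at an unadjusted p below 0.05), with a median of -0.18 beside 0.02. In EBC-1 minus SK-MES-1, 1 of 63 was lower (1.59%, close to the 1.55% of all genes) and 0 higher (5 at an unadjusted p below 0.05), with a median of -0.12 beside 0.01. Most of the calls below were lost in some fits with 1 array left out, most often an array of edited A549 cells. With each group's own spread, none of the named calls with *miR-150-3p* (adjusted p of at least 0.347) or with siRNA against *DONSON* (at least 0.158) held. Without a filter on dim probes, those with *miR-150-3p* had an adjusted p of 0.0541 or 0.0542.

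In the folate cycle, which feeds TYMS, each treatment had genes past the threshold. The mitochondrial serine hydroxymethyltransferase *SHMT2* was lower with siRNA against *DONSON* (-0.68, SE 0.12, adjusted p = 0.022) and in edited A549 cells (-0.82, SE 0.12, adjusted p = 0.00638), on 3 of 3 arrays each. The siDONSON call held in 4 of 8 fits with 1 array left out (adjusted p up to 0.0945) but not after subtraction of the other groups' arrays (-0.20), and the A549 call held in 7 of 8 (up to 0.0505) and, at -0.43, after subtraction. *MTHFD2*, a mitochondrial folate dehydrogenase, was at -1.09, -1.20 and -1.20 on the edited A549 arrays (adjusted p = 0.0287), and *MTHFD2L* was lower there as well (-0.68, adjusted p = 0.0234), both in 5 of 8 fits with 1 array left out, those without an edited A549 array being the exceptions (adjusted p of 0.0657 to 0.147). With normexp and loess, *MTHFD2L* was at -0.08 and missed the threshold (adjusted p = 0.332). *MTHFD1L* was lower with *miR-150-3p* (-0.80, adjusted p = 0.0299) and with siRNA against *DONSON* (-0.53, adjusted p = 0.0367). These calls held in 4 and 3 of 8 fits with 1 array left out (adjusted p up to 0.231 and 0.118), and neither held after subtraction of the other groups' arrays (-0.35 and 0.02). With normexp and loess both passed at smaller values (-0.46 and -0.34). *SLC19A1*, the reduced folate carrier, was also among the 4 folate genes lower in edited A549 cells by limma, of 9 tested (beside 6.77% of all genes). It was at -0.43, -0.47 and -0.29 on these arrays, and was named after its values were seen. On the other arrays it was below 0 as well, except on siDONSON-2 (0.23).

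In the synthesis of the bases, *DHODH*, which makes orotate for pyrimidines, was lower in all 3 treatments, at -0.54 with *miR-150-3p* (adjusted p = 0.044), -0.44 with siRNA against *DONSON* (adjusted p = 0.0353) and -0.58 in edited A549 cells (adjusted p = 0.0094). It was below 0 on 8 of 8 arrays, and after subtraction of the other groups' arrays its values were -0.03, 0.12 and -0.10 and none passed, so that a dye bias of the probe and a change shared by all treatments cannot be told apart. *ATIC*, of the last steps to IMP, was lower with *miR-150-3p* (-0.55, adjusted p = 0.0467) and with siRNA against *DONSON* (-0.51, adjusted p = 0.0279), and both calls were lost after the same subtraction (-0.18 and -0.15). In guanine nucleotide synthesis, *IMPDH2* was lower (-0.50, adjusted p = 0.0473) and *IMPDH1* higher (0.41, adjusted p = 0.0498) with siRNA against *DONSON*, and after the subtraction only *IMPDH1* passed, which missed the threshold with median centring (adjusted p = 0.063). *DHODH* with siRNA against *DONSON* was at -0.29 with normexp and loess. With 1 array left out, the calls of *DHODH* held in 2, 3 and 5 of 8 fits, and those of *ATIC*, *IMPDH1* and *IMPDH2* in 2 of 8 each, with adjusted p-values of up to 0.328 without the EBC-1 array and up to 0.153 otherwise. The phosphoribosyl pyrophosphate synthetase *PRPS2* was at -1.42 in EBC-1 but -0.26 in SK-MES-1, and the difference passed (-1.16, SE 0.16, adjusted p = 0.0326), but not without an edited A549 array (adjusted p of 0.0997 to 0.114) or without a filter on dim probes (0.0599). With normexp and loess it shrank to -0.20 and missed the threshold (adjusted p = 0.277).

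Among the salvage kinases, *DGUOK* (-0.84, adjusted p = 0.0314), *ADK* (-0.73, adjusted p = 0.03) and *UCK2* (-0.66, adjusted p = 0.0295) were lower with *miR-150-3p*, each below 0 in both lines, and *ADK* was also lower with siRNA against *DONSON* (-0.45, or -0.26 with normexp and loess, adjusted p = 0.0451 and 0.0444). *ADK* and *UCK2* were below 0 on all siDONSON and edited A549 arrays too, and *DGUOK* on all of them but siDONSON-3 (0.15). A dye bias of their probes was not tested. After subtraction of the other groups' arrays *DGUOK* passed, but *ADK* (-0.42 and -0.05) and *UCK2* (-0.40) did not. Without the EBC-1 array or an edited A549 array, none of the 3 passed with *miR-150-3p* (adjusted p of 0.0667 to 0.241), and *ADK* with siRNA against *DONSON* passed only without a *miR-150-3p* array (adjusted p up to 0.116 otherwise). *ADA*, adenosine deaminase, was lower with siRNA against *DONSON* (-0.49, adjusted p = 0.0347), though in only 3 of 8 fits with 1 array left out (adjusted p up to 0.104). *NT5E*, the ectonucleotidase CD73, was lower in edited A549 cells (-1.13, SE 0.20, adjusted p = 0.021), except in the fits without an array of these cells (adjusted p of 0.063 to 0.116), and its mean was -0.56 with normexp and loess (adjusted p = 0.043). *RRM2B*, the alternative small subunit of the reductase, was at -0.46, -0.64 and -0.66 in edited A549 cells (mean -0.59, SE 0.14, adjusted p = 0.0387), and its call was lost without any 1 of those arrays (adjusted p of 0.128 to 0.187), without siDONSON-2 (adjusted p = 0.0512) and with normexp and loess (-0.18, adjusted p = 0.051). In EBC-1 neither of its probes was well above background, so that a shift between the small subunits could not be read there. Of the transporter list, 0 genes passed in limma, with 3 or 4 of 6 tested, and at most 3 had an unadjusted p below 0.05.

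**Figure D3:**
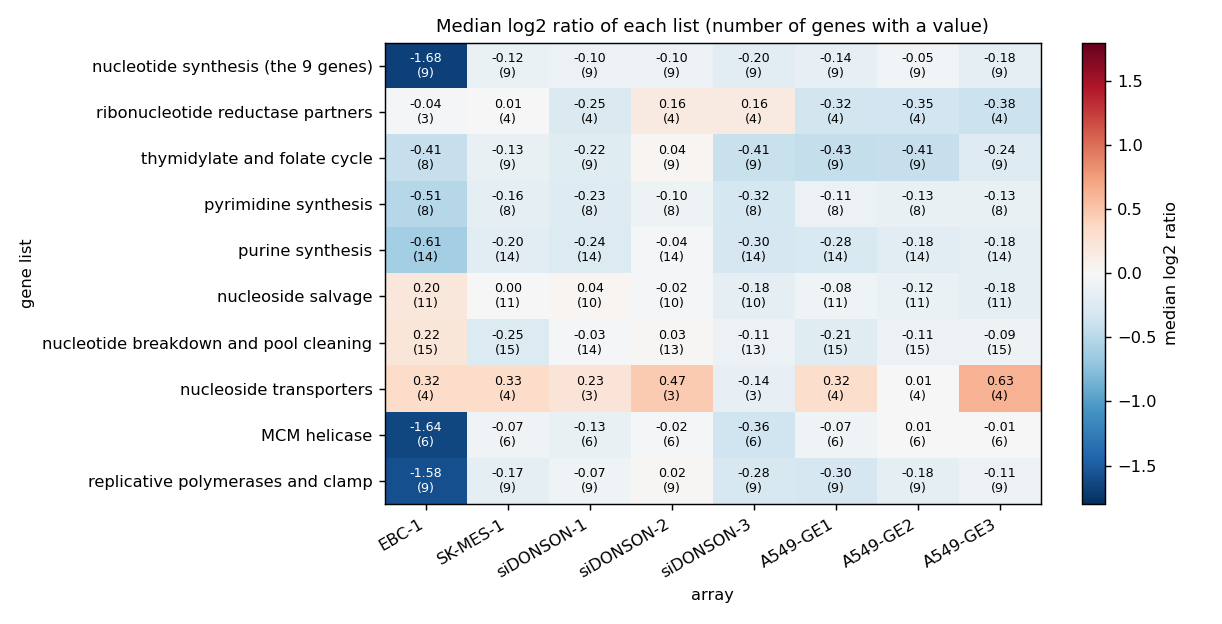
Median log2 ratio of the 9 nucleotide genes, the 7 lists around them and the 2 replication lists (vertical axis) on each of the 8 arrays (horizontal axis), with the number of genes that had a value in parentheses. The darkest fields are those of the 9 genes (-1.68), the MCM list (-1.64) and the polymerase list (-1.58) in EBC-1, while salvage (0.20), breakdown (0.22) and transport (0.32) have medians above 0 there.

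The 5 genes outside the 9 whose log2 ratios over the 8 arrays were most like the mean of the 9 genes were *RPL39L* (Pearson's r = 0.995), *CEP78* (0.993), *PRPS2* (0.993), *ESCO2* (0.992) and *BLM* (0.991), among 11226 genes with both channels well above background on every array. The points share their slide and in part their control RNA, and the EBC-1 array sets this likeness. *ESCO2* was at -2.82 and *BLM* at -2.58 in EBC-1, and between -0.34 and 0.13 on all other arrays. Without the EBC-1 array, r was 0.81 for *RPL39L*, 0.76 for *CEP78* and 0.34 to 0.41 for the other 3 genes. Each of the 9 genes was also set against the mean of the other 8. With all arrays r lay between 0.46 (*SLC29A1*) and 0.99 (*TYMS*), and without EBC-1 between -0.75 (*DCK*) and 0.80 (*DTYMK*), with 6 of 9 values below 0. Outside EBC-1, 50 of 77 probe values (64.9%) lay within the software error of 0, so these 7 points do not tell whether the genes rise and fall together there.

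The green channels give the level of each gene in the control cells, as the log2 signal minus the 75th percentile of the array, compared between lines for the same probe only. There was 1 array each of EBC-1 and SK-MES-1 and 3 each of SBC-3 and A549. The 3 green channels of a line may be 1 RNA, in which case their spread is technical. SBC-3 had the lowest mean level for 9 of the 11 probes, though not beyond the spread for *DCK* and 1 *CTPS1* probe, and EBC-1 for the probes of *RRM1* and *TYMS*. *TK1* varied most, at 5.95 in EBC-1, 5.30 in SK-MES-1, 5.02 ± 0.04 (SD, 3 arrays) in A549 and 3.16 ± 0.06 (SD, 3 arrays) in SBC-3. *RRM1* had the opposite order, with 1.95 ± 0.00 in SBC-3, 1.79 ± 0.02 in A549, 1.26 in SK-MES-1 and 0.87 in EBC-1. *RRM2* followed the order EBC-1 (-0.56), A549 (-0.76 ± 0.08), SK-MES-1 (-1.02) and SBC-3 (-1.61 ± 0.06). EBC-1 thus had the highest level of *TK1* and *RRM2* and the lowest of *RRM1*.

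*TYMS* was at 3.59 ± 0.02 in SBC-3, 3.58 in SK-MES-1, 3.30 ± 0.02 in A549 and 3.07 in EBC-1. The SBC-3 and SK-MES-1 levels differed by less than the range over arrays of 1 line. The same held for SK-MES-1 and EBC-1 at the *DTYMK* probe and for all neighbours in the order of *DCK*, whose levels ranged over 0.81 between arrays of the same line. Both *DUT* probes gave the order SK-MES-1, EBC-1, A549 and SBC-3, with 0.79 and 0.95 between the highest and the lowest line, and the *CTPS1* probes both put SK-MES-1 highest. At 1 of them EBC-1 and SBC-3, and at the other EBC-1 and A549, differed by less than that range, and with Aquantile scaling EBC-1 was lowest at the former. *SLC29A1* was at 0.38 in EBC-1, 0.18 ± 0.05 in A549, -0.10 in SK-MES-1 and -0.85 ± 0.09 in SBC-3. With other scalings of the green channels, the lowest line was the same for 10 or 11 of the 11 probes and the whole order for 7 to 9 of them. *RRM1* was then highest in A549 with median scaling, and *DCK* highest in SBC-3 with normexp. The controls of EBC-1 and SK-MES-1 differed by 0.65 for *TK1* and 0.51 for *TYMS*, and by less for the other 9 probes. This order depends on the scaling, as with Aquantile *TK1* differed by 0.32 and *TYMS* by 0.61, and with median scaling *SLC29A1* (0.57) and *RRM2* (0.55) came before *TYMS* (0.43).

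**Figure D4:**
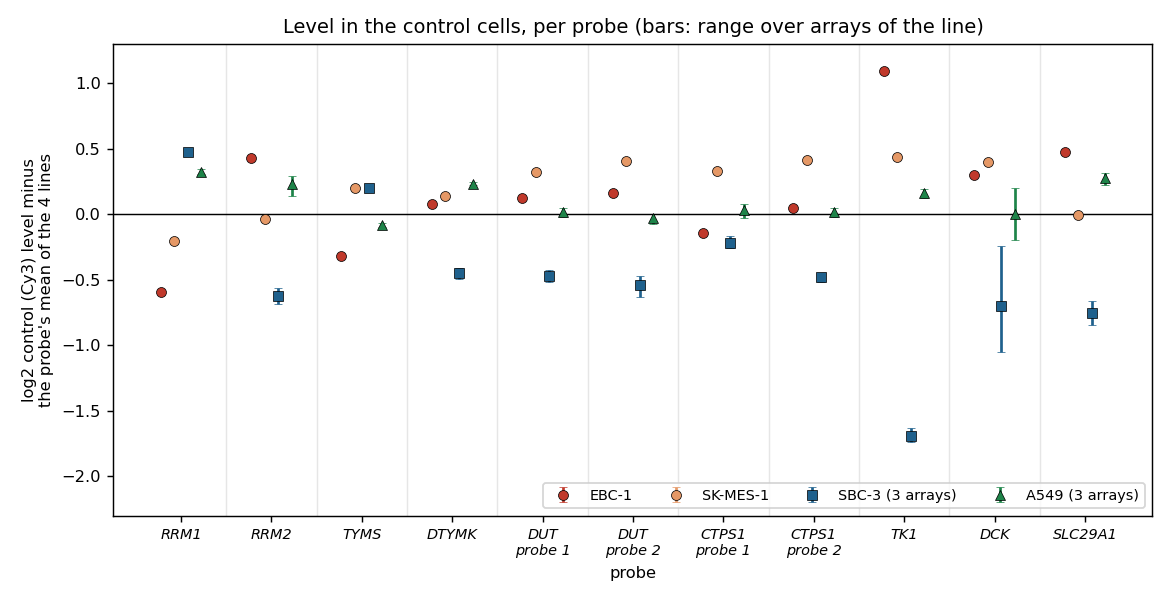
Level of each of the 11 probes in the control (Cy3) channel of the 4 cell lines, as the log2 level minus the mean of the lines for that probe (vertical axis), with bars for the range over 3 arrays in SBC-3 and A549. SBC-3 has the lowest mean for 9 of the 11 probes, close to EBC-1 at 1 *CTPS1* probe, most of all for *TK1*, and highest for *RRM1* and, level with SK-MES-1, for *TYMS*.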

How the data were processed

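RNA of 8 treated samples (Cy5) and their controls (Cy3) was hybridized to 8 Agilent arrays on 1 slide. Feature Extraction (version 12.1.1.1 per the file headers) had background-subtracted, detrended and dye-normalized the intensities that the authors deposited. In the deposited series table, values were the log10 ratios of these files (largest difference 0). The number of arrays limits the precision.

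Log2 ratios of red over green were computed from the processed intensities. Control spots and spots marked as outliers were left out, probes had to be well above background in at least 1 channel of an array, and counted probes of a gene were averaged. Probes were named through RefSeq accessions, of which 24782 of 50096 matched a symbol. limma (version 3.58.1, R 4.3.3) fitted 3 groups to all arrays with 5 residual degrees of freedom, and 4 groups for EBC-1 minus SK-MES-1, with Benjamini-Hochberg adjustment over all genes tested and a threshold of 0.05. The fits were also run on simulated data, in which every array was given the spread of the siDONSON and edited A549 arrays. The simulated arrays had no dye bias or shared control RNA. They therefore cannot check these limits, or the spread assumed for the lone EBC-1 and SK-MES-1 arrays.

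The cell lines and siRNAs differ between arrays, but nothing says that the 3 edited A549 samples came from separate cultures. The p-values measure only the spread between these arrays, part of which may be technical. Where 1 control RNA served several arrays, its own spread is left out. A dye bias of single probes is not removed, except in EBC-1 minus SK-MES-1. The 9 genes and all lists were chosen with earlier results of these data known. Named genes were the 9, *DONSON*, *LOXL2* and *RRM2B*, of each list the 3 lowest and 3 highest past the threshold with both channels well above background, and the 5 most like the mean of the 9. *SLC19A1* was named after its values were seen, and markers are named besides. The lists leave out 1 gene and 1 marker first planned, for a reason unrelated to their values. Promoter windows came from RefSeq (GRCh38.p14), while the array files name an older build, so only symbols link them.

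Alternatives were normexp (offset 50, on median spot signals, since the files hold no mean ones) with loess, median centring, other filters, the brightest probe, subtraction of the other groups' arrays, own spread, an intensity trend, a replicate block, each array left out, and, for control levels, median scaling, Aquantile and normexp.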

Additional observations from a re-analysis of the deposited data

Results flagged for a closer look

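The log2 ratios with *miR-150-3p* on the EBC-1 and SK-MES-1 arrays differed past the limma threshold for 11 named genes, each with the lower value in EBC-1. The differences were -2.10 for *RRM2*, -1.93 for *TYMS*, -1.57 for *TK1* and -1.25 for *DTYMK* among the nucleotide genes, and -1.16 for *PRPS2* (-0.20 and not past the threshold with normexp and loess) in the lists around them. In the replication lists they were -2.13 for *PRIM1*, -2.12 for *PCNA*, -2.10 for *POLE2* (-0.58 with normexp and loess), -2.01 for *MCM6*, -1.90 for *MCM4* and -1.63 for *MCM5*. Each line had 1 array, whose spread was assumed to be that of the siDONSON and edited A549 arrays. With any 1 of the edited A549 arrays left out, 0 of 14229 genes passed in limma (1166 lower and 871 higher at an unadjusted p below 0.05 without A549-GE1), so these calls rest on the spread of those arrays. Without a filter on dim probes, only *TYMS*, *PCNA*, *POLE2* and *MCM4* of the 11 passed. Groups of 3 arrays are too small to test for a sample far from the others.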

How the results depend on the processing

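In EBC-1, all 9 nucleotide genes were below 0 in each processing that gave values per array, and their median was -1.68, -1.26 with normexp and loess, and -1.36 after subtraction of the other groups' arrays. With *miR-150-3p*, the count of nucleotide genes past the threshold was 0, and it was 2 with normexp and loess, 2 with both channels well above background and 3 with an intensity trend in the spread. Leaving out 1 array at a time gave 0 to 8. In EBC-1 minus SK-MES-1 the count was 4, and 1 without a filter on dim probes, where more genes were tested. Leaving out 1 array gave 0 to 6. With siRNA against *DONSON* it was 0 in each processing and 0 to 1 with 1 array left out. In edited A549 cells it was 0, and 4 with the group's own spread. After the subtraction, the medians of the 9 genes turned above 0 on the 7 arrays other than EBC-1, to 0.05 in SK-MES-1 and to between 0.12 and 0.34 on the 6 others. *TK1* on siDONSON-3 turned from -0.44 to 0.19 after subtraction of the other groups' arrays, which by construction lifts genes low in EBC-1.

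The labels number the siDONSON and edited A549 arrays 1 to 3. Deviations of arrays with the same number correlated at -0.02, -0.01 and -0.01 over 13655 genes, so they share only a number. With the number as a replicate block, the count in EBC-1 minus SK-MES-1 was 0, as 0 of 13446 genes passed in limma (1069 lower and 776 higher at an unadjusted p below 0.05, lowest adjusted p of the 9 genes 0.0956), and it stayed at 0 in the other comparisons.

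Over all genes, the counts lower and higher with *miR-150-3p* turned from 413 and 352 to 726 and 810 with normexp and loess, 655 and 443 with both channels, 708 and 548 with the trend, 134 and 64 without the filter, 13 and 8 with the block and 0 and 0 with own spread (874 and 1070 at an unadjusted p below 0.05). With siRNA against *DONSON* they turned from 464 and 579 to 533 and 443 with median centring, and were 523 and 967 with normexp and loess, 2133 and 764 without the filter, 1349 and 1438 after subtraction, 110 and 106 with the block and 24 and 2 with own spread. In edited A549 cells they turned from 1051 and 1178 to 1330 and 1856 with normexp and loess, 1612 and 1334 after subtraction, 3914 and 1461 without the filter, 2852 and 3021 with own spread and 439 and 499 with the block. In EBC-1 minus SK-MES-1 they turned from 220 and 75 to 321 and 221 with normexp and loess, 68 and 57 without the filter and 352 and 109 with the trend. With 1 array left out at a time, the counts were 1 and 0 without EBC-1 (969 and 1224 at an unadjusted p below 0.05) and 1585 and 1387 without SK-MES-1 with *miR-150-3p*, 58 and 39 without siDONSON-3 with siRNA against *DONSON*, and 208 and 262 without A549-GE2 in edited A549 cells. In EBC-1 minus SK-MES-1 they were 0 and 0 with any 1 edited A549 array left out (1166 and 871 at an unadjusted p below 0.05 without A549-GE1) and 536 and 207 without siDONSON-2. With 1 array per line, own spread could not be run for this difference, subtraction cancels in it, and leaving out either line gives no value. Without the filter, the median of all genes shifted by up to -0.12. *DONSON* and *LOXL2* stayed past the threshold in all 19 alternatives, from -0.89 (normexp and loess, which shrinks dim genes) to -2.13 and from -2.40 to -2.68.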
